A study of Mus musculus with 18 samples.

Results

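The brain of adult male mice lacking Pcgf6 was compared with wild-type brain across all genes. The comparison took 6 of the 18 libraries of the study, 3 from knockout (KO) and 3 from wild-type (WT) brain, chosen by the deposited value columns that carry the brain and genotype names. All mice were 8 weeks old, male and of the C57BL/6 strain, and the genotype was given only as KO or WT, with the construct, the deleted sequence and any backcross not given in the sources used here. The other 12 libraries came from liver and testis of the same genotypes, 3 libraries each. Poly-A RNA of whole tissue was sequenced, and the libraries are called WT 1 to WT 3 and KO 1 to KO 3 after the numbers in the deposited columns.

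PCGF6 is the subunit that defines the variant polycomb repressive complex PRC1.6, which also holds the ubiquitin ligase RNF2, L3MBTL2 and the DNA-binding proteins MGA, MAX and E2F6. The complex is known for repressing germ cell genes in somatic cells, in part through E-box and E2F sequences at their promoters. Germ cell genes of this kind serve meiosis and the piRNA pathway, which silences transposons in the male germ line, and are normally at very low levels in brain.

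The 6 brain libraries held 20759022 to 23183662 reads assigned to genes, recovered as whole numbers from the deposited FPKM (fragments per kilobase of gene, scaled to library depth). Mbp of oligodendrocytes was at 337 to 451 FPKM and Gad1 of inhibitory neurons at 40.6 to 54.6 FPKM. Transcripts of other tissues were also present and were uneven between libraries: the liver gene Alb was at 0.0154, 0.0472 and 9.55 FPKM in WT 1 to 3 and at 0.41, 4.24 and 5.47 FPKM in KO 1 to 3. The libraries WT 1, WT 2 and KO 1 were under 1 FPKM of Alb, and results that could move with it are given with these alone as well. The labels do not say that the libraries came from separate animals, so the p-values measure the spread between these libraries.

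The targeted gene was reduced but still read. Pcgf6 (chr19:47033619-47050845, mm10) was at 4.58, 5.18 and 5.29 FPKM in WT and at 3.3, 4.2 and 4.42 FPKM in KO. All 3 KO values were below the lowest WT value, and the KO mean was 79.3% of the WT mean. The difference was -1.04 FPKM, with an exact two-sided permutation p of 0.1, the smallest that 3 against 3 libraries allow, and a log2 fold change of -0.34 ± 0.12 (SE; limma, adjusted p = 1). The value covers the whole gene, so it does not show whether the reads left in KO lie outside the deleted sequence. In liver and testis the log2 fold changes were -1.35 and -1.06.

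Few genes differed between the genotypes, and most of those that did were higher in KO. Of 17922 genes that reached 10 reads in 3 or more of the 6 libraries, 15 (0.0837%) had an adjusted p under 0.05 (limma on log2(FPKM + 0.1), Benjamini-Hochberg over all genes tested). Of these, 12 (0.067%) were higher in KO and 3 were lower. At an unadjusted p under 0.05 there were 800 genes (4.46%), 456 higher (2.54%) and 344 lower (1.92%). The libraries of the 2 genotypes did not overlap for 1628 genes (9.08%), with KO above WT for 895 (4.99%) and below for 733 (4.09%). The genes that rose were 5 germ cell genes (Mael, Slc25a31, Syce1, Henmt1 and Rbm46), 4 genes of the X chromosome (Xlr4b, Xlr4c, Gm4779 and 8030474K03Rik), the pseudogene Obox3-ps7, and Klk6 and Gabra2 of brain cells. Those that fell were Rps4l, Ide and Mir378b.

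Rps4l, Xlr4b, Xlr4c, Gm4779, 8030474K03Rik, Henmt1, Mael and Slc25a31 kept an adjusted p under 0.05 (limma) without any 1 of the 6 libraries. The number of called genes was 8 without WT 2, KO 2 or KO 3 and 9 without WT 3. Syce1 lost its call without each library except WT 1 (adjusted p 0.061 to 0.0908), and Rbm46 without each except KO 1 (0.0976 to 0.153). Mir378b and Obox3-ps7 kept theirs only without KO 1, while Ide, Klk6 and Gabra2 missed the threshold in all 6 cases, with adjusted p up to 0.13, 0.151 and 0.192.

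**Figure D1:**
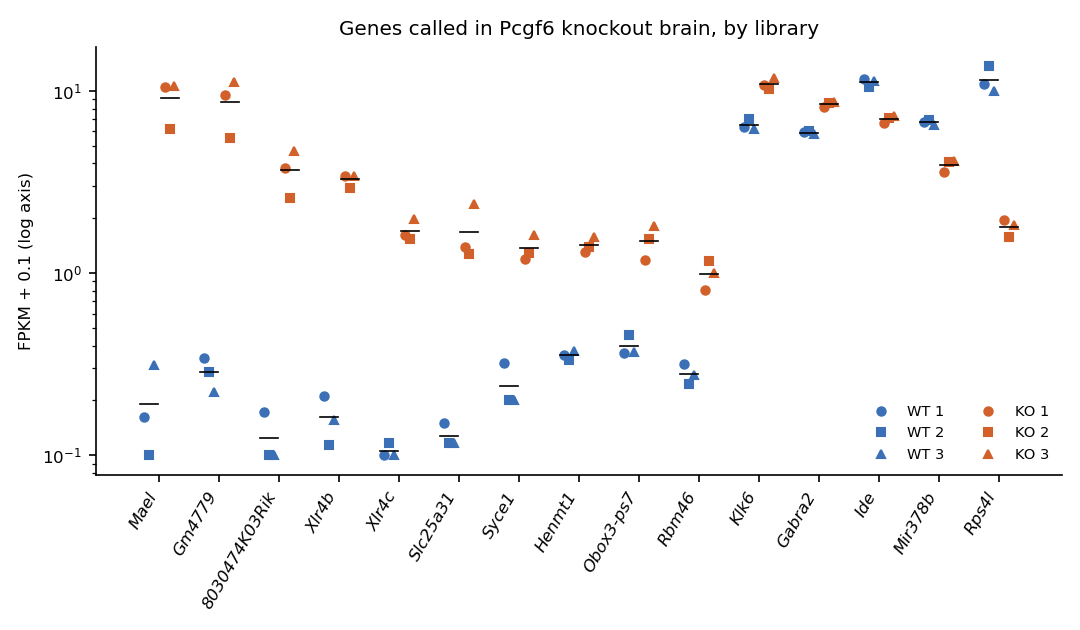
FPKM plus 0.1 (log axis) of the 15 called genes in each of the 6 brain libraries, WT in blue and KO in orange, with 1 symbol shape per library number and a line at each mean, ordered by log2 fold change. Genes to the left were near 0 in WT and between 0.705 and 11.1 FPKM in KO, whereas Klk6, Gabra2, Ide and Mir378b were read in both genotypes and differed by less.

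The germ cell gene with the highest level in KO brain was Mael, which encodes the piRNA-pathway protein Maelstrom. Mael was at 0.0624, 0 and 0.211 FPKM in WT and at 10.3, 6.11 and 10.5 FPKM in KO. All 3 KO libraries stood far above all 3 WT libraries, with means of 0.0912 ± 0.109 and 9 ± 2.51 FPKM (SD, n = 3), a 98.7-fold difference. The log2 fold change was 5.69 ± 0.41 (SE; limma, adjusted p = 0.00264). It rested on 13 reads in WT and 1228 in KO. With a pseudocount of 0.01 in place of 0.1 its adjusted p was 0.102.

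Slc25a31, the ADP/ATP carrier of male germ cell mitochondria, was at 0.0508, 0.0173 and 0.0172 FPKM in WT and at 1.3, 1.17 and 2.29 FPKM in KO. Its KO libraries were all above 1 FPKM and its WT libraries near 0, a 55.8-fold difference of means (log2 fold change 3.67 ± 0.26, limma adjusted p = 0.00264). Syce1, a central element protein of the synaptonemal complex that holds paired meiotic chromosomes, was at 0.222, 0.101 and 0.1 FPKM in WT and at 1.1, 1.18 and 1.53 FPKM in KO. The groups did not overlap and the means differed 8.99-fold (2.53 ± 0.23, limma adjusted p = 0.0142).

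Henmt1, the methyltransferase that protects the ends of piRNAs, was the steadiest of the germ cell genes. It was at 0.256, 0.234 and 0.274 FPKM in WT and at 1.21, 1.29 and 1.49 FPKM in KO, a 5.22-fold difference (2.01 ± 0.14, limma adjusted p = 0.00264). Rbm46, a germ cell RNA-binding protein needed for meiosis, was at 0.216, 0.147 and 0.176 FPKM in WT and at 0.705, 1.06 and 0.906 FPKM in KO. Its KO libraries were all above its WT libraries, and the means differed 4.95-fold (1.81 ± 0.19, limma adjusted p = 0.0224).

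The promoters of these genes were searched for CACGTG, the E-box bound by MGA and MAX, and for GCGGGAA or its reverse complement TTCCCGC, the E2F6 sequence, on both strands in the 250 bases before the RefSeq start. Over 32851 promoter windows, 6.02% held the E-box, 3.82% the E2F sequence and 0.338% both. The E-box was present for Mael, Slc25a31 and Rbm46, beginning 223, 93 and 34 bases before the start, and for Ddx4, 29 bases before it. Ddx4 also held the E2F sequence, 136 bases before its start. Among uncalled germ cell genes described here, Taf7l, Tdrd1, Stk31, Sycp3 and Hormad1 held the E-box as well, while Dazl, Tdrkh, Tex101 and Gpat2 held neither motif. The windows shown are those of the 3 called genes with a motif, and that of Ddx4 because it holds both motifs and its genotypes did not overlap. The windows are chr1:166238745-166238994 (minus strand) for Mael, chr3:40708621-40708870 (plus) for Slc25a31, chr3:82876484-82876733 (minus) for Rbm46 and chr13:112652311-112652560 (minus) for Ddx4, from RefSeq on GRCm38.p6, 5′ to 3′ with the motifs in capitals.
Mael: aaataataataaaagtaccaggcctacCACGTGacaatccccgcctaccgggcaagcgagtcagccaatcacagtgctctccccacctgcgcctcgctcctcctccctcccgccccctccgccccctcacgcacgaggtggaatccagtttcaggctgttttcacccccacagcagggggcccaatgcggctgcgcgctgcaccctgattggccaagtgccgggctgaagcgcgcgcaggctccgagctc
Slc25a31: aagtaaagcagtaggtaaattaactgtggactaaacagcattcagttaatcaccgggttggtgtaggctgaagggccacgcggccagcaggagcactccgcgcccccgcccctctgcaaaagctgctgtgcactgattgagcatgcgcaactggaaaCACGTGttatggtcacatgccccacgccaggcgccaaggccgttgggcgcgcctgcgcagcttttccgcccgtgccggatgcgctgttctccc
Rbm46: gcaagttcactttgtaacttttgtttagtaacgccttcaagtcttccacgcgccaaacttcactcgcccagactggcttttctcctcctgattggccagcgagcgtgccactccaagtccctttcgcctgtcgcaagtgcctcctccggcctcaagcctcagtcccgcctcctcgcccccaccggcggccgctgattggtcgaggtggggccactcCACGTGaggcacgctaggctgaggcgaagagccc
Ddx4: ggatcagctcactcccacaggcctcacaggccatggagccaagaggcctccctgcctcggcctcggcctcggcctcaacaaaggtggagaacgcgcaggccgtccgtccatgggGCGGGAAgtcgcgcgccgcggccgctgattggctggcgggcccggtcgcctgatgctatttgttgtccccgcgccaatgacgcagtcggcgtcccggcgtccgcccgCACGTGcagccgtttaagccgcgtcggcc
Neither motif was found in the windows of Syce1 and Henmt1. Among the 11 genes higher in KO with a window, 3 (27.3%) held the E-box and 0 the E2F sequence. For comparison, the E-box was in 11 of 22 genes (50%) of the list of known PRC1.6 germline targets, in 122 of 1641 testis-restricted genes (7.43%) and in 1170 of 12384 genes tested in brain (9.45%). All 5 germ cell promoters held more CpG than the median window, with 18 CpG for Mael, Slc25a31 and Rbm46, 13 for Syce1 and 30 for Henmt1, against a median of 6 over all windows.

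Most known PRC1.6 germline targets did not reach the threshold in brain. Of 23 genes on that list, 22 had reads and 15 passed the read filter, of which 12 had higher and 3 lower KO means and 3 (Mael, Slc25a31 and Syce1) were called. A gene silent in WT passes the filter only through its KO libraries, so these counts are descriptive. The median log2 fold change was 0.33, against 0.01 over all tested genes, of which 9555 were higher and 8367 lower. Summed over the list, WT libraries were at 9.74, 8.75 and 9.86 FPKM and KO libraries at 26.2, 20.9 and 31.5 FPKM, so each KO library lay above each WT library. Much of this rise lay in Mael and Ddx4. In KO 1 to 3, Mael held 10.3, 6.11 and 10.5 FPKM of the sum and Ddx4 3.44, 2.65 and 5.74 FPKM. Their highest WT values were 0.211 and 0.948 FPKM. With WT 1, WT 2 and KO 1 alone the median was 0.43, again with 12 of 15 higher.

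Ddx4, the germ cell RNA helicase also called Vasa, was at 0.693, 0.416 and 0.948 FPKM in WT and at 3.44, 2.65 and 5.74 FPKM in KO. The groups did not overlap and the means differed 5.75-fold, but the adjusted p was 0.111 (limma, log2 fold change 2.35 ± 0.33). Taf7l, a germ cell subunit of the general transcription factor TFIID, was at 0.112, 0.0164 and 0.147 FPKM in WT and at 0.927, 0.327 and 1.21 FPKM in KO, also without overlap (2.19, limma adjusted p = 0.522). Dazl, an RNA-binding protein of germ cells, ran the other way, at 1.08, 0.764 and 0.821 FPKM in WT and at 0.558, 0.75 and 0.543 FPKM in KO (-0.46, limma adjusted p = 1). Sycp3, a lateral element protein of the synaptonemal complex whose promoter holds both motifs, had a log2 fold change of -0.01, and Tdrkh, a piRNA trimming cofactor, one of 0.13. Tex101, Stk31 and Hormad1 had too few reads to be tested. Tex101 reads numbered 2 in WT and 15 in KO, which is a ratio of 7.79 (95% exact interval 1.81 to 70.2, counting error only).

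Of 24 genes of the piRNA pathway, 5 of which (Mael, Ddx4, Tdrd1, Mov10l1 and Tdrkh) are also on that list, 19 were tested, 15 higher and 4 lower. Mael and Henmt1 rose, and 5 (26.3%) had an unadjusted p under 0.05 (limma), all higher, against 4.46% of all tested genes. The median was 0.18, with 0.12 without KO 1 or without WT 3 and 0.28 without KO 3. Gpat2, a mitochondrial piRNA biogenesis factor, was at 0.0822, 0.196 and 0.362 FPKM in WT and at 1.01, 1.36 and 1.29 FPKM in KO, with no overlap (2.16, limma adjusted p = 0.138). Of 34 synaptonemal complex and meiotic chromosome genes, 22 were tested, 13 higher and 9 lower, with Syce1 called and a median of 0.04, which was 0.18 without KO 2 and 0.24 with WT 1, WT 2 and KO 1 alone. Of 20 germ cell RNA-binding proteins and regulators, 12 were tested, 8 higher and 4 lower, with Rbm46 called and a median of 0.14, which was 0.057 without WT 3, 0.22 without KO 3 and 0.30 with WT 1, WT 2 and KO 1 alone. The piRNA list had 0.21 with these 3 libraries. As for the germline targets, a gene silent in WT passes the filter only through its KO libraries, so the counts of these lists are descriptive.

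**Figure D2:**
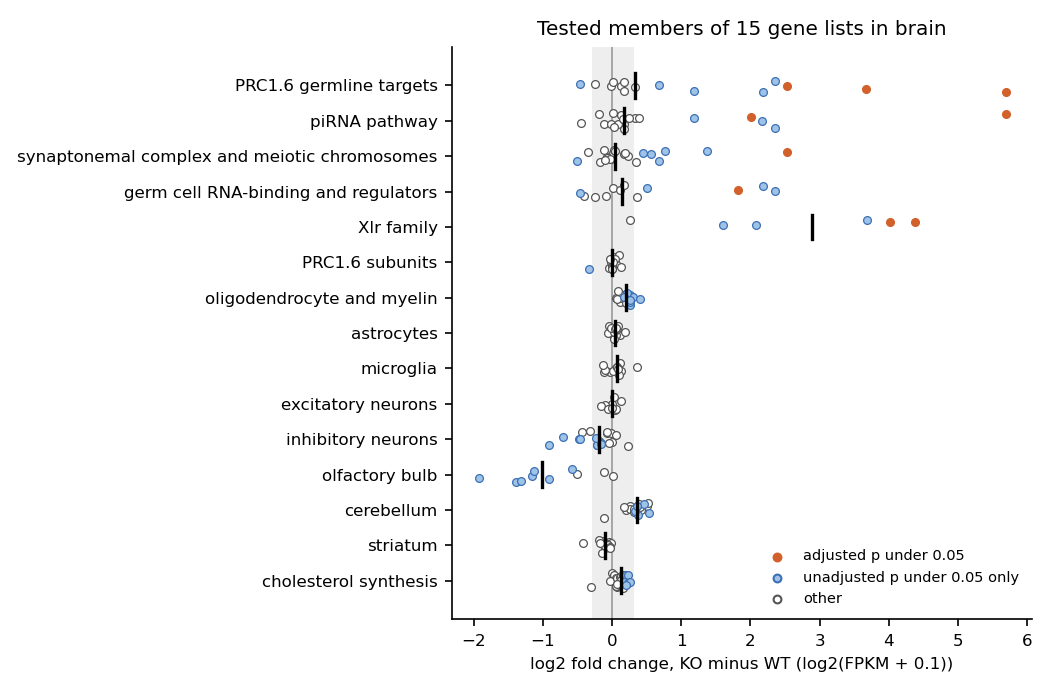
Log2 fold change (KO minus WT) of each tested gene in 15 gene lists, with called genes in orange, those at an unadjusted p under 0.05 in light blue and a black bar at each list's median; the grey band spans the 5th to the 95th percentile of all tested genes. The Xlr family and a few germ cell genes lie far to the right, while the PRC1.6 subunit, astrocyte, microglia and excitatory neuron medians are close to 0. The olfactory bulb median lies to the left at -1.02 and the cerebellum median to the right at 0.36, and inhibitory neuron genes reach -0.91.

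The median of testis genes as a whole was close to that of all tested genes. Testis-restricted genes were defined without brain libraries, by a level of 10 CPM or more in WT testis that was 100 or more times the WT liver level (CPM, counts scaled to library depth). Of 2413 such genes, 2180 had reads in brain and 1054 were tested, 587 with higher and 467 with lower KO means. The median was 0.02, against 0.01 over all tested genes. Of the 1054, 5 were called, all higher, beside 12 called higher of all 17922 tested genes. An unadjusted p under 0.05 (limma) was reached by 6.36%, against 4.46% of all tested genes. Among those with a brain mean under 1 FPKM, 321 of 555 were higher and 4 were called, beside 2566 of 4816 and 6 for all tested genes at that level. Here too a gene silent in WT passes the read filter only through its KO libraries, so these counts and shares are descriptive.

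Spermatid transcripts varied between libraries of both genotypes. The sum of Prm1, Prm2, Tnp1 and Tnp2, which encode the protamines and transition proteins that pack sperm chromatin, was 0.686, 0.471 and 5.7 FPKM in WT and 0.557, 11.3 and 4.19 FPKM in KO. Set against WT testis, this was 0.00214% to 0.0515% of the level there. KO 1, with 0.41 FPKM of Alb and 0.557 FPKM of the spermatid sum, had 10.3 FPKM of Mael, and KO 2, with 4.24 and 11.3 FPKM, had 6.11 FPKM. The part that transcripts of other tissues had in the germ cell results was not tested. The KO means were 1.73% of the WT testis level for Mael, 5.24% for Slc25a31, 0.746% for Syce1, 14.6% for Henmt1, 4.79% for Rbm46 and 2.48% for Ddx4. In WT 1, WT 2 and KO 1 alone, the log2 fold changes were 6.36 for Mael, 3.39 for Slc25a31, 1.93 for Henmt1, 2.23 for Syce1 and 1.52 for Rbm46. With 1 KO library left, the spread there comes from the 2 WT libraries and the KO library is assumed to vary like them. The limma adjusted p on that basis was 0.0181 for Mael and 0.0931 to 0.459 for the other 4.

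**Figure D3:**
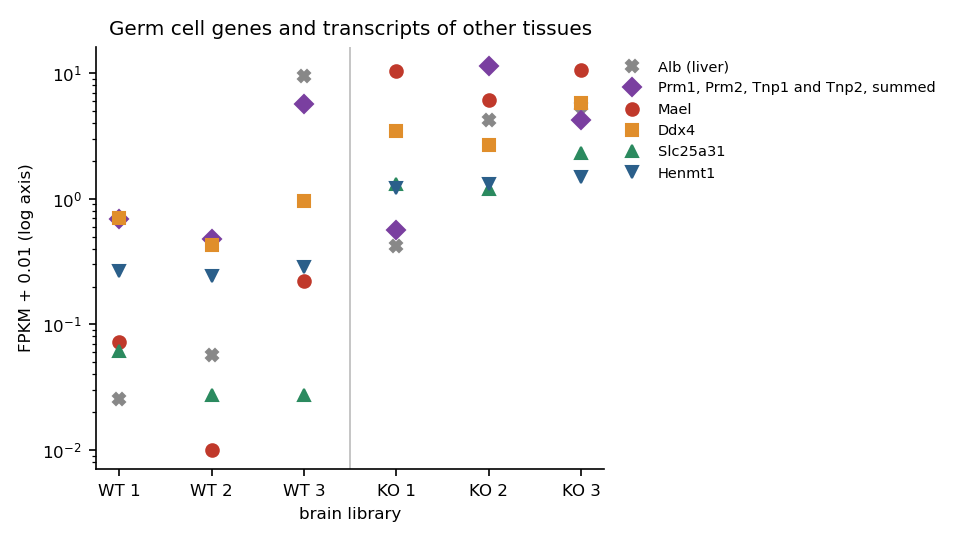
FPKM plus 0.01 (log axis) of Alb, of the summed protamine and transition protein genes and of 4 germ cell genes in each brain library, with WT left of the line and KO right. Alb and the spermatid sum vary within both genotypes, from 0.0154 to 9.55 FPKM for Alb, while Mael, Ddx4, Slc25a31 and Henmt1 are higher in all 3 KO libraries.

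On the X chromosome, a cluster of Xlr genes and a pair of neighbouring genes rose. The Xlr genes encode nuclear proteins related to the synaptonemal complex protein SYCP3, and Xlr3b, Xlr4b and Xlr4c are known for being imprinted in mouse brain. Xlr4c (chrX:73233688-73243130) was at 0, 0.0165 and 0 FPKM in WT and at 1.52, 1.43 and 1.88 FPKM in KO, from 1 read against 285, a ratio of 296 (95% exact interval 52.7 to 11738, counting error only). Its log2 fold change was 4.02 ± 0.17 (limma, adjusted p = 0.00046), the smallest adjusted p of all genes. Xlr4b was at 0.113, 0.0144 and 0.0572 FPKM in WT and at 3.33, 2.84 and 3.32 FPKM in KO, a 51.6-fold difference (4.38 ± 0.23, limma adjusted p = 0.00073). Both genes were thus near 0 in every WT library and narrow in spread in KO.

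Xlr4a, Xlr3b and Xlr3a of the same cluster were higher in KO without passing the threshold. Xlr4a was at 0.54, 0.024 and 0.0477 FPKM in WT and at 2.45, 3.02 and 3.07 FPKM in KO (3.69, limma adjusted p = 0.149). Xlr3b was at 1.78, 2.36 and 0.862 FPKM in WT and at 7.21, 6.36 and 7.08 FPKM in KO (2.08, 0.128), and Xlr3a at 0.365, 0.401 and 0.299 FPKM in WT and at 1.29, 0.972 and 1.63 FPKM in KO (1.6, 0.0637). None of these 3 genes overlapped between genotypes. Xlr3c, below the read filter, was counted 3 times in WT and 26 times in KO (12, 3 and 11 reads in KO 1 to 3). That is a ratio of 9.01 (95% exact interval 2.76 to 46.5, counting error only). With the filter loosened to 10 reads over all brain libraries, Xlr3c had an adjusted p of 0.881 (limma). Of 10 Xlr genes, 6 were tested and all 6 were higher, with a median of 2.89 (2.47 and 5 of 6 higher with WT 1, WT 2 and KO 1 alone). Genes such as Xlr4c, with 1 read in WT, passed the read filter only through KO libraries, so these counts and the median are descriptive. Xlr5a, Xlr5b and Xlr5c were all but unread in both genotypes, with Xlr5a at 3 reads in WT and 2 in KO. The copies are near-identical, so how reads were shared among them is uncertain. Within the windows before the starts of Xlr4a, Xlr4b and Xlr4c, an aligned block of 110 bases is shown because it was the same in Xlr4b and Xlr4c and differed at 1 base in Xlr4a. It ends 30, 23 and 0 bases before the respective start (chrX:73082538-73082647, minus strand, chrX:73214200-73214309, plus, and chrX:73243131-73243240, minus, RefSeq on GRCm38.p6), with the differing base in capitals.
Xlr4a: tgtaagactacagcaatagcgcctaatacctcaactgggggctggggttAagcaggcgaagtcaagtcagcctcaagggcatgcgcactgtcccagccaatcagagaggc
Xlr4b: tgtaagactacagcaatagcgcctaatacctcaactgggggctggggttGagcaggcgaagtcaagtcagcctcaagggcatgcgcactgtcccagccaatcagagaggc
Xlr4c: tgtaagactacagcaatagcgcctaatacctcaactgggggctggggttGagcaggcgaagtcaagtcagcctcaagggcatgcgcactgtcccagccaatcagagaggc
Neither the E-box nor the E2F sequence was in the windows of Xlr4b and Xlr4c, which held 8 and 5 CpG.

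Gm4779 and 8030474K03Rik start head to head on opposite strands (chrX:101790053-101794423, minus, and chrX:101794656-101798642, plus). Gm4779 was at 0.244, 0.187 and 0.124 FPKM in WT and at 9.4, 5.44 and 11.1 FPKM in KO, a 46.7-fold difference (4.90 ± 0.28, limma adjusted p = 0.000882). 8030474K03Rik was at 0.0719, 0 and 0 FPKM in WT and at 3.66, 2.49 and 4.56 FPKM in KO, a 149-fold difference (4.90 ± 0.29, limma adjusted p = 0.00104). The pair ran in the same order over the KO libraries, with KO 2 lowest and KO 3 highest for both. The 210 bases between their RefSeq starts (chrX:101794446-101794655, plus strand, GRCm38.p6) are shown because both genes start at its ends; no motif was found in it, so no base is in capitals.
Gm4779 to 8030474K03Rik: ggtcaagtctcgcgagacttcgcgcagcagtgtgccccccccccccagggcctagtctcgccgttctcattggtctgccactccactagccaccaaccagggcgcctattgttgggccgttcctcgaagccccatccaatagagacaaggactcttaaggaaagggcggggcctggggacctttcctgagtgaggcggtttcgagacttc
Within 1 Mb of Gm4779, 13 of 21 tested neighbours were higher, 8030474K03Rik among them, and 8 lower. An unadjusted p under 0.05 (limma) was reached by 2 of the 21, both higher, and 1 of these was 8030474K03Rik itself. Over the whole X chromosome, 34 of 610 tested genes (5.57%) had an unadjusted p under 0.05.

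The tested neighbours of the called germ cell genes on autosomes were not called. Within 1 Mb of Mael, 11 of 22 tested neighbours were higher and 11 lower, with a median log2 fold change of 0.00. The medians were -0.03 around Slc25a31 (13 genes), -0.04 around Henmt1 (33), 0.05 around Syce1 (61) and 0.03 around Rbm46 (16).

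Rps4l, a transcribed processed pseudogene of the ribosomal protein S4 family (chr6:148354656-148355598), fell the most among called genes. It was at 10.8, 13.5 and 9.94 FPKM in WT and at 1.87, 1.48 and 1.73 FPKM in KO. The KO libraries were all far below the WT libraries, at 14.8% of the WT mean (11.4 ± 1.87 against 1.69 ± 0.196 FPKM, SD, n = 3). Its log2 fold change was -2.68 ± 0.13 (limma, adjusted p = 0.000679), and it lies within Tmtc1, which had -0.05 (unadjusted p = 0.411). None of its 12 tested neighbours within 1 Mb had an unadjusted p under 0.05.

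Ide, the insulin-degrading enzyme, which also cleaves amyloid beta, fell by a moderate amount. It lies on chromosome 19 at chr19:37268743-37337852, about 10 Mb from Pcgf6, and was at 11.5, 10.4 and 11.2 FPKM in WT and at 6.56, 7.02 and 7.16 FPKM in KO. The groups did not overlap, and the KO mean was 62.6% of the WT mean (-0.67 ± 0.06, limma adjusted p = 0.018). Within 1 Mb of Ide, 7 of 18 tested neighbours were higher and 11 lower, with a median of -0.06, and 1 of the higher and 4 of the lower had an unadjusted p under 0.05. Fgfbp3, which encodes a protein that binds fibroblast growth factors, was at 4.8, 4.62 and 4.84 FPKM in WT and at 2.64, 2.82 and 3.16 FPKM in KO (-0.71, limma adjusted p = 0.0539). Btaf1, a transcription factor subunit that removes the TATA-binding protein from DNA, was at 6.63, 6.54 and 6.56 FPKM in WT and at 4.4, 4.6 and 5.12 FPKM in KO (-0.48, 0.149). Both had all KO libraries below all WT libraries. From 35 to 40 Mb of chromosome 19, 15 of 27 tested genes were higher and 12 lower, and 6 (22.2%) had an unadjusted p under 0.05, 5 lower (Ide, Fgfbp3, Btaf1, Rpl10-ps6 and Fra10ac1) and 1 higher (Rbp4, 0.26). Rpl10-ps6 lies within Ide. On chromosome 19 as a whole the share was 31 of 557 (5.57%). Within 1 Mb of Pcgf6 it was 2 of 36 (5.56%), and 1 of these 2 was Pcgf6 itself.

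**Figure D4:**
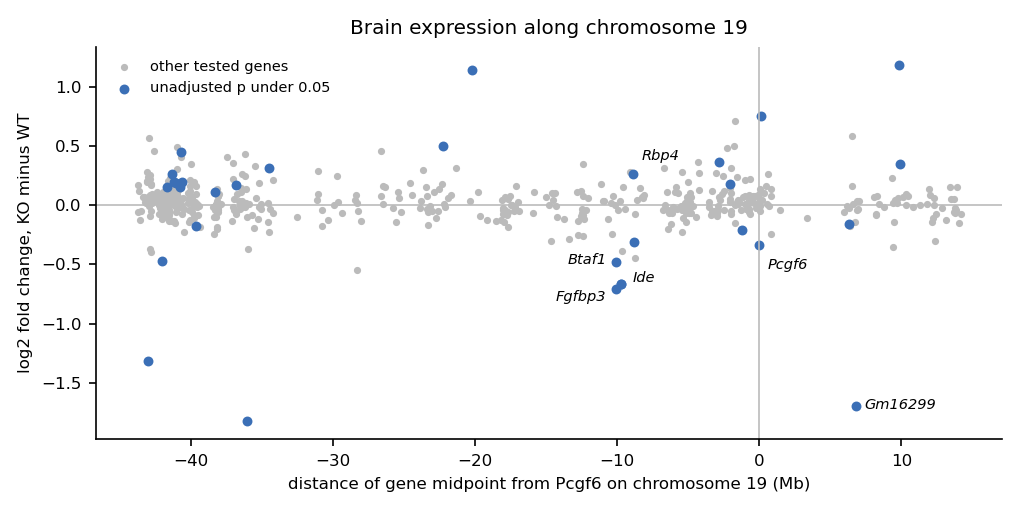
Log2 fold change in brain (KO minus WT) of 557 tested genes on chromosome 19 against the distance of the gene's midpoint from Pcgf6 in Mb, with genes at an unadjusted p under 0.05 in blue and Pcgf6 at 0. Ide, Fgfbp3 and Btaf1 lie together about 10 Mb to the left and all below 0.

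Mir378b was at 6.66, 6.81 and 6.37 FPKM in WT and at 3.48, 3.99 and 4.04 FPKM in KO, which was 58% of the WT mean (-0.77 ± 0.08, limma adjusted p = 0.022). This gene is 92 bases long and lies within Msi2, and 50 reads in WT and 28 in KO stood behind the values. A poly-A library does not measure the mature miRNA, and the strand setting of the counting is not given in the sources used here, so reads of Msi2 (-0.04, unadjusted p = 0.687) cannot be told apart from those of the miRNA gene.

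Klk6 and Gabra2 were the 2 genes of brain cells that rose. Klk6, a secreted kallikrein peptidase known from oligodendrocytes, was at 6.26, 6.92 and 6.07 FPKM in WT and at 10.7, 10.2 and 11.7 FPKM in KO. The groups were well apart at a 1.69-fold difference (0.75 ± 0.08, limma adjusted p = 0.022). Of 6 tested kallikreins and myelin proteases, 3 were higher and 3 lower, and Klk8, another brain kallikrein, had -0.16. Gabra2, the alpha 2 subunit of the GABA-A receptor, was at 5.81, 5.94 and 5.67 FPKM in WT and at 8.11, 8.43 and 8.6 FPKM in KO, a 1.44-fold difference with no overlap (0.52 ± 0.06, limma adjusted p = 0.0274). Of 15 tested GABA-A subunits, 5 were higher and 10 lower, with a median of -0.07 and none but Gabra2 called. Gabra3 and Gabra5 each had -0.16. The pseudogene Obox3-ps7 was at 0.264, 0.359 and 0.268 FPKM in WT and at 1.07, 1.43 and 1.72 FPKM in KO (4.75-fold, 1.91 ± 0.20, limma adjusted p = 0.022), from 10 reads against 46.

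No list of brain cell markers held a called gene, but some leaned to 1 side. In whole tissue, fewer cells of a type and less RNA per cell cannot be told apart. All 21 oligodendrocyte and myelin genes had higher KO means, with a median of 0.21. Of the 21, 9 (42.9%) had an unadjusted p under 0.05 (limma), against 4.46% of all tested genes. Trf, an iron carrier made by oligodendrocytes, was at 6.98, 6.26 and 6.2 FPKM in WT and at 8.75, 7.78 and 9.34 FPKM in KO (0.41, limma adjusted p = 0.522). Mbp, the myelin basic protein, was at 337, 348 and 366 FPKM in WT and at 391.5, 420 and 451 FPKM in KO (0.26, adjusted p = 1). Neither gene overlapped between genotypes. They were among 6 of the 21 with all KO libraries above all WT libraries, as were 4.99% of all tested genes. The list's sum overlapped, at 1273, 1270.2 and 1495 FPKM in WT and 1428, 1536 and 1715 FPKM in KO.

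Of 19 inhibitory neuron genes, 2 were higher and 17 lower, with a median of -0.18. An unadjusted p under 0.05 (limma) was reached by 8 (42.1%), all lower, against 4.46% of all tested genes. The list's sum overlapped between genotypes, at 739, 758 and 646 FPKM in WT and 765, 695 and 651 FPKM in KO. Gad1, which makes GABA, was at 54.6, 51.2 and 50.3 FPKM in WT and at 49.1, 44.3 and 40.6 FPKM in KO (-0.22, limma adjusted p = 1). Dlx1, a transcription factor of interneurons, was at 5.88, 7.15 and 7.22 FPKM in WT and at 5.42, 3.98 and 5.08 FPKM in KO (-0.48, adjusted p = 0.833). With WT 1, WT 2 and KO 1 alone the median of the list was -0.04, with 7 of 19 higher, whereas that of oligodendrocyte genes was 0.19, with 19 of 21 higher. Astrocyte, microglia and excitatory neuron genes were close to all genes, with medians of 0.04 (13 genes), 0.07 (13 genes) and 0.01 (9 genes). Without single libraries the median of excitatory neuron genes ran from -0.033 (without WT 2) to 0.04 (without KO 3).

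Marker genes of single brain regions also varied between libraries. Olfactory bulb genes were higher for 1 and lower for 9 of 10, with a median of -1.02. Of the 10, 7 (70%) had an unadjusted p under 0.05 (limma), all lower, against 4.46% of all tested genes. Their sum was 35, 38.4 and 47.3 FPKM in WT and 32.5, 24 and 28.2 FPKM in KO. Th, the tyrosine hydroxylase of dopamine neurons, was at 6.38, 7.18 and 7.76 FPKM in WT and at 5.33, 4.03 and 4.92 FPKM in KO (-0.57, limma adjusted p = 0.51). Omp, the marker of olfactory sensory neurons, was at 0.806, 1.34 and 3.72 FPKM in WT and at 0.728, 0.12 and 0.398 FPKM in KO (-1.93, adjusted p = 0.92). WT 3 was the highest library for the list, and leaving out single libraries gave medians from -1.24 (without KO 1) to -0.60 (without KO 2). With WT 1, WT 2 and KO 1 alone the median was -0.30, with 1 higher and 9 lower. Cerebellum genes were higher for 17 and lower for 1 of 18, with a median of 0.36. Of the 18, 5 (27.8%) had an unadjusted p under 0.05 (limma), all higher. The cerebellum sum was 420, 387 and 251 FPKM in WT and 470, 418 and 391 FPKM in KO. WT 3 was lowest here, and without it the median was 0.14. It was 0.25 with WT 1, WT 2 and KO 1 alone. Striatum genes were lower for all 16, with a median of -0.10 (-0.19 without WT 2 and -0.034 without WT 1), but in WT 1, WT 2 and KO 1 alone 8 were higher and 8 lower. The part that the amount of each region in the dissected tissue had in the neuron and myelin results was not tested.

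**Figure D5:**
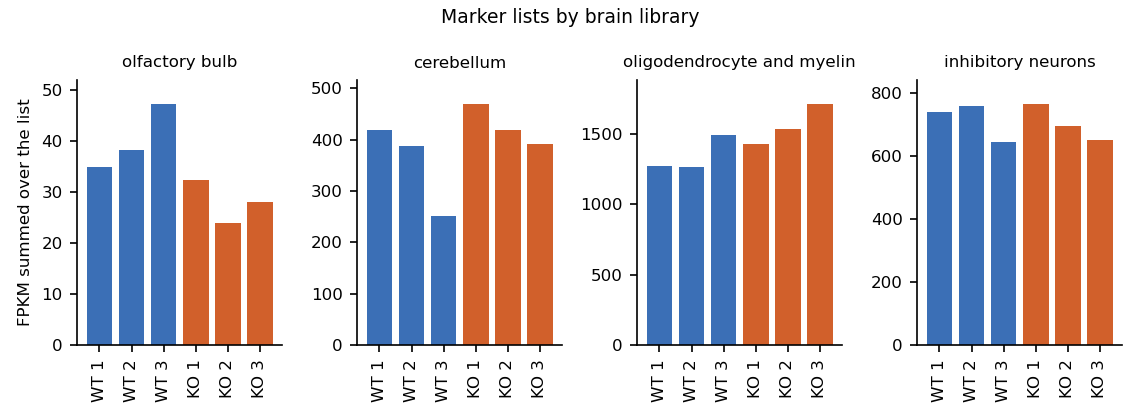
Summed FPKM of olfactory bulb, cerebellum, oligodendrocyte and inhibitory neuron genes in each brain library (bars from 0, WT in blue, KO in orange). The olfactory bulb sum is highest and the cerebellum sum lowest in WT 3.

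The other subunits of the complex and of related machinery were near their WT levels. Of 16 PRC1.6 subunits, 8 were higher and 8 lower, with a median of 0.00, and Pcgf6 itself was the gene with an unadjusted p under 0.05. E2f6 had 0.14, Rnf2 0.10 and L3mbtl2 0.06. Of 17 other PRC1 subunits, 10 were higher and 7 lower, and of 11 PRC2 subunits 6 were higher and 5 lower. Genes of DNA and H3K9 methylation were higher for 11 and lower for 4 of 15, with a median of 0.03, and imprinted genes for 16 and 11 of 27, with a median of 0.01. No gene of these lists was called. Cholesterol synthesis genes were higher for 22 and lower for 2 of 24, with a median of 0.13. Of the 24, 6 (25%) had an unadjusted p under 0.05 (limma), all higher, against 4.46% of all tested genes. Mvk, the mevalonate kinase of this pathway, was at 5.68, 5.88 and 5.34 FPKM in WT and at 7.15, 6.11 and 6.65 FPKM in KO, without overlap (0.23, limma adjusted p = 0.965).

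Lists that report on the state of the tissue held no called gene. Immediate early genes were higher for 3 and lower for 10 of 13, with a median of -0.04 that ran from -0.21 without KO 2 to 0.031 without WT 1 (0.023 without KO 1). Circadian clock genes were higher for 5 and lower for 10 of 15, with a median of -0.05 (-0.091 without KO 2, -0.016 without KO 3). Interferon response genes were higher for 5 and lower for 6 of 11, with a median of -0.03, but with WT 1, WT 2 and KO 1 alone 9 were higher and 2 lower, with a median of 0.19. Ribosomal protein genes were higher for 21 and lower for 56 of 77, with a median of -0.05, and mitochondrially encoded genes for 8 and 19 of 27, also with a median of -0.05.

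Among the 20 uncalled genes of smallest p whose genotypes did not overlap, 12 were higher and 8 lower in KO. Beside the Xlr genes, Ddx4 and Gpat2, they included Ccdc36, a meiotic chromosome axis protein, at 0.237, 0.14 and 0.152 FPKM in WT and at 0.582, 0.572 and 0.514 FPKM in KO (1.26, limma adjusted p = 0.127). Ybx2, a germ cell protein that binds messenger RNA, was at 2.31, 2.11 and 2.43 FPKM in WT and at 3.38, 3.51 and 2.99 FPKM in KO (0.51, adjusted p = 0.436). Of the lower ones, Ighg2c, an immunoglobulin constant chain, was at 1.06, 0.917 and 1.74 FPKM in WT and at 0.483, 0.305 and 0.28 FPKM in KO (-1.53, adjusted p = 0.275). The 3 tested lymphocyte genes had a median of -0.24, which was 0.017 without KO 2 and -0.68 without KO 1.

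The difference between tissues was tested for each gene by the interaction of genotype and tissue. For brain minus liver, 0 of 12922 genes tested in both (0.0%) had an adjusted p under 0.05 (limma), 625 had an unadjusted p under 0.05, and voom, limma's method for counts, called 1 gene on the recovered reads. In liver itself 3 of 14124 genes were called (0.0212%), Mael, Slc25a31 and Syce1, with log2 fold changes of 7.17, 4.80 and 4.23. Of the other genes called in brain, Gm4779 had 5.05, Xlr4b 4.66, 8030474K03Rik 3.96, Xlr4c 1.98, Ide -0.68 and Rps4l -2.43 in liver. In testis 1 of 22341 genes was called (0.00448%), the predicted gene Gm5815 (-3.02, and -1.71 in brain). For brain minus testis, 10 of 15962 genes (0.0626%) had an adjusted p under 0.05, and all 10 were genes called in brain. Their testis log2 fold changes ran from -0.18 for Rps4l to 0.21 for Gm4779, with 0.09 for Mael, -0.05 for Slc25a31, 0.04 for Syce1 and Xlr4c, and 0.03 for Henmt1.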

How the data were processed

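The authors deposited 1 table of FPKM values per brain library. Per the submitters' processing notes, the build was mm10 and the tools were HISAT2 2.0.5, featureCounts 1.5.0-p3 and DESeq2 1.16.1. Per the labels' protocols, poly-A RNA was made into libraries with a kit that does not mark strand, and the strand setting of the counting is not given in the sources used here, so overlapping genes cannot be told apart. Multiplied by gene length, the values were whole multiples of a constant in each library (within 0.01 of a whole read for 100% of values), which gave the reads and the depth of 20759022 to 23183662 per brain library.

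The tested genes reached 10 reads in 3 or more of the 6 libraries. The values log2(FPKM + 0.1) were fitted in R 4.3.3 by limma 3.58.1 with a trend of variance on mean level, and a gene was called at an adjusted p (Benjamini-Hochberg) under 0.05. A fold change on this scale understates the change of low genes. Interactions with tissue were fitted to 12 libraries each. Other steps used Python 3.11.15. The fits were tested on simulated data. Named were Pcgf6, all called genes, the 20 uncalled genes of smallest p whose genotypes did not overlap (mean of at least 1 CPM), up to 4 genes per list by p and the first 3 markers of each cell type, known germline targets, genes called in liver, and neighbours within 1 Mb. The comparison, the 46 gene lists and the tests were chosen with earlier results of these data known. Xlr3c and the 35 to 40 Mb interval of chromosome 19 were chosen after their values were seen. File coordinates overlapped RefSeq GRCm38.p6 genes of the same symbol for 99.9% of 16172 genes, and the promoter sequences are from RefSeq. Alternatives changed the pseudocount, filter, scaling, model and libraries.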

Additional observations from a re-analysis of the deposited data

Results flagged for a closer look

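For 10 genes the effect in brain differed from that in testis by the interaction of genotype and tissue (limma, 12 libraries, Benjamini-Hochberg over 15962 genes), and all were higher or lower in brain in every KO library than in any WT library. The difference of log2 fold changes, brain minus testis, was 5.59 ± 0.46 for Mael (SE; adjusted p = 0.000107), 4.99 ± 0.33 for 8030474K03Rik (2.36e-05), 4.69 ± 0.31 for Gm4779 (2.36e-05), 4.24 ± 0.30 for Xlr4b (3.36e-05), 3.97 ± 0.22 for Xlr4c (9.1e-06) and 3.72 ± 0.28 for Slc25a31 (7.5e-05). It was 2.49 ± 0.24 for Syce1 (0.000467), 1.98 ± 0.16 for Henmt1 (9.08e-05), 1.64 ± 0.21 for Rbm46 (0.00763) and -2.49 ± 0.26 for Rps4l (0.00129). In WT testis, Mael was at 522 FPKM and Rps4l at 85.9 FPKM, against 0.0912 and 11.4 FPKM in WT brain.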

How the results depend on the processing

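The main test called 15 genes in brain. With all 18 libraries in 1 fit it was 27, with voom and quality weights 24, and with only WT 1, WT 2 and KO 1 (chosen after seeing the data, with 1 KO library assumed to vary like WT) 9, of which 3 were among the 15. Leaving out 1 library at a time gave 8 to 12. The other alternatives gave 11 to 22. Deviations of same-numbered libraries from their group means correlated at 0.09, -0.08 and 0.25, and those of unlike number at -0.24 to 0.18. Such correlations cannot show whether the numbers pair the samples, and the labels do not say. With a replicate block 9 genes were called, 8 of them among the 15. For brain minus liver the count moved from 0 to 1 with the loose filter, 2 with a pseudocount of 0.01, 1 with a pseudocount of 1 and 1 with voom; for brain minus testis it stayed between 10 and 14. The causes were not tested. Pcgf6 was lower in KO in every case (-1.27 to -0.70 FPKM without single libraries). Over 294 values of the 15 called genes none changed sign and 77 missed the threshold. Among the other named genes Sycp3 changed sign without KO 1, KO 2 or WT 1 (values without single libraries from -0.14 to 0.084), and Tac1 with only WT 1, WT 2 and KO 1 (0.030). The median of piRNA genes was 0.055 with a pseudocount of 1 and 2.01 with the strict filter, which tests fewer genes, and that of PRC1.6 germline targets 0.11 and 0.13. Genes below the read filter were not tested in the main fit, while the loose filter admitted those with 10 or more reads over all brain libraries.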

Other observations

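These groups were chosen after their values were seen and have no test of their own. A cluster of zinc finger genes on chromosome 2 (175 to 178.2 Mb) had 27 tested genes, 23 higher and 4 lower in KO brain, with a median log2 fold change of 0.28. Of these, 7 (25.9%) had an unadjusted p under 0.05 (limma), all higher, including Gm14418 (0.84) and Gm14322 (0.94), and none was called.

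The gamma protocadherins, cell adhesion proteins that give neurons their identity, went both ways. Of 21 tested, 12 were higher and 9 lower, with 5 and 3 at an unadjusted p under 0.05 (38.1%, against 4.46% of all tested genes). Pcdhga2 was at 1.59, 1.4 and 1.39 FPKM in WT and at 0.495, 0.58 and 0.752 FPKM in KO (-1.15, limma adjusted p = 0.111), with no overlap, while Pcdhga9 had 0.49. Beta protocadherins were higher for 4 and lower for 17 of 21, with a median of -0.16. Only 1 of them (4.76%) had an unadjusted p under 0.05 (limma), close to the 4.46% of all tested genes.

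Some genes were all but silent in 1 genotype. With at most 3 reads over all WT libraries and at least 3 in each KO library there were 27 genes, and 28 in the reverse direction, 5 and 0 of them on the X chromosome. With at least 5 reads in each library of the other genotype there were 4 (Xlr4c, Gm5096, Luzp4 and Gm15097) and 1 (Gm16299). Luzp4, an X-linked germ cell gene, had 0, 0 and 0 reads in WT and 29, 14 and 9 reads in KO, at least 6.12-fold higher against a floor of 3 reads per library. Gm16299, on chromosome 19 and antisense to Rbm20, had 18, 26 and 17 reads in WT and 0, 2 and 1 in KO, a WT to KO ratio of 19.6 (95% exact interval 6.39 to 97.5, counting error only), with an adjusted p of 0.0599 (limma).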
